A study of Drosophila melanogaster with 32 samples.

Results

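The receptors with which Drosophila smells and tastes, and the pickpocket (ppk) sodium channels, were examined for the binding of 4 chromatin proteins. Members were all genes of the fly gene table named Or, Gr or Ir with a number and a letter, or ppk with or without a number. This name rule found 214 of the 17673 genes on the chromosome arms: 59 Or, 60 Gr, 66 Ir and 29 ppk genes. Of these, 208 were annotated as protein-coding, and Ir47b, Ir48a, Ir51a, Ir56e, Ir60c and Ir60f were pseudogenes. A peak was given to a member when its summit lay between 1000 bp before and 1000 bp after the gene span.

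Odorant receptors (Or) are ligand-gated channels of olfactory neurons that work together with the shared co-receptor Orco. Gustatory receptors (Gr) detect sugars, bitter compounds and carbon dioxide. Ionotropic receptors (Ir) descend from glutamate receptors and sense acids, amines, humidity and temperature, and most of them need a co-receptor of the same family. The ppk genes encode DEG/ENaC channels that take part in pheromone taste, water taste, salt taste and the sensing of harsh touch. In adult flies and larvae many such genes are known for expression in small sets of sensory neurons. Kc167 is an embryo-derived cell line that is labelled female, and the binding data used here hold no expression values, so whether any member is transcribed in it was not measured.

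Peak lists came from chromatin immunoprecipitation followed by sequencing (ChIP-seq), for M1BP, for CP190 and for the gypsy insulator proteins Su(Hw) and Mod(mdg4). M1BP is a zinc-finger transcription factor of the Motif 1 promoter element. Su(Hw) is the sequence-specific DNA-binding protein of that insulator. CP190 and Mod(mdg4) are its partners, and CP190 also sits at many promoters. Binding of all 4 was mapped in mock-treated cells (the first mock set) and in cells given 20 µg of double-stranded RNA (dsRNA) against M1BP. M1BP and CP190 were mapped again in a second mock set and in cells given 12 µg of dsRNA against Cp190, which encodes CP190. The knockdown cells were kept for 5 days at 25 °C. What the mock cells received is not stated in the labels. The design asks where M1BP meets the insulator proteins, whether these need M1BP, and whether M1BP needs CP190.

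Each of the 12 groups had 2 libraries, and 8 of the 32 samples were inputs without a peak list. Between 1699 and 8443 peaks were listed per library, and member windows held between 0.282% and 0.744% of the peaks of a list. In the M1BP lists there were 2980 and 2781 peaks in mock cells against 1776 and 1699 after M1BP knockdown. In the CP190 lists there were 8443 and 8197 peaks in the second mock set against 2031 and 2150 after CP190 knockdown. The labels do not say whether the libraries of a group came from separate cultures, so differences between them may be technical. With 2 libraries against 2 the smallest p of an exact permutation test, two-sided, is 1 in 3, so no p is given for any comparison.

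Most chemosensory and ppk genes had no peak of any of the 4 proteins. No summit lay in the window of 157 of the 214 members (73.4%) in any of the 24 lists, against 6916 of all 17673 genes (39.1%). The genes without any peak were 45 of 59 Or genes, 44 of 60 Gr genes, 54 of 66 Ir genes and 14 of 29 ppk genes. The median gene span was 1761.5 bp for members and 1709 bp for all genes, but the windows were not matched in total length. Merged windows covered 0.889 Mb for the 214 members and 103 Mb for the 17673 genes, which is more per gene for all genes. These shares are therefore not corrected for window length, and site densities per Mb are given below. Members whose windows overlap that of another member, as in the receptor clusters, had a peak in 14 of 90 cases (15.6%), and those standing apart in 43 of 124 (34.7%). By chromosome arm, 8 of 40 members had a peak on 2L, 20 of 58 on 2R, 9 of 38 on 3L, 11 of 50 on 3R and 9 of 28 on X. The shares of all genes by arm, and by overlap of windows, were not computed. These differences can therefore not be read as traits of the members.

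In the first mock set each protein was found at a smaller share of the members than of all genes. M1BP was present in both libraries at 9 members (4.21%), against 24.4% of all genes. CP190 was present at 36 members (16.8%), against 46.6% of all genes. Su(Hw), at 22 members (10.3%), came nearer to its share of all genes, which was 13.9%, and so did Mod(mdg4), at 16 members (7.48%) against 10.9%. The second mock set gave 14 members for M1BP (6.54%, against 30.7% of all genes) and 38 for CP190 (17.8%, against 49.7%). All 9 M1BP members and all 36 CP190 members of the first set were among those of the second. M1BP was added in the second set at Gr97a, Ir8a, ppk6, ppk28 and ppk29, and CP190 at Ir25a and ppk13. After M1BP knockdown the members with a protein in both libraries numbered 5 for M1BP (2.34%, against 15.8% of all genes) and 42 for CP190 (19.6%, against 46.9%). They numbered 25 for Su(Hw) (11.7%, against 16.1%) and 20 for Mod(mdg4) (9.35%, against 12.6%). After CP190 knockdown they numbered 14 for M1BP (6.54%, against 31.4%) and 7 for CP190 (3.27%, against 14.1%). These counts depend on the window, since with no flank they dropped to 3 members for M1BP, 7 for CP190, 7 for Su(Hw) and 4 for Mod(mdg4) in the first mock set.

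**Figure D1:**
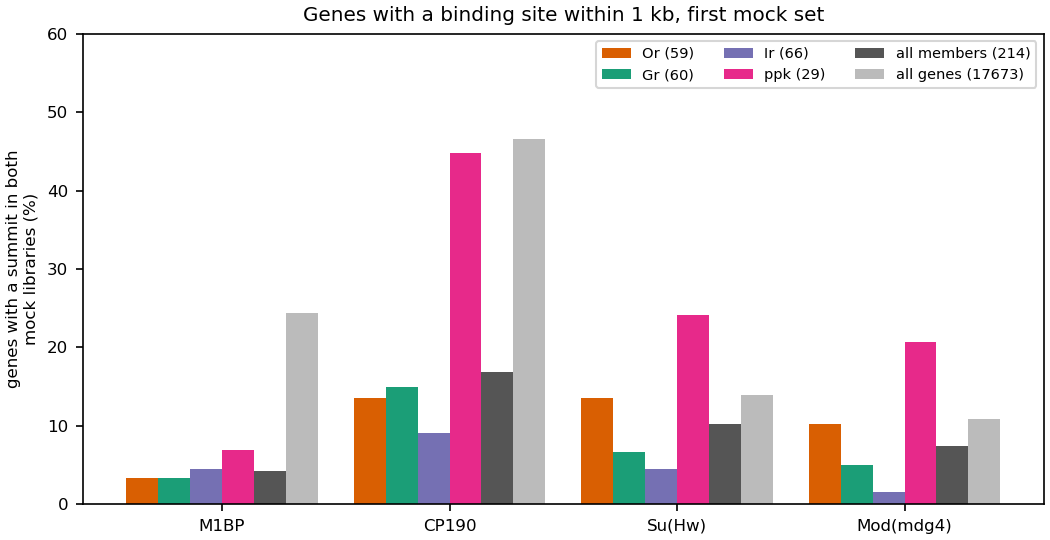
Percent of genes (vertical axis) with a summit within 1 kb in both libraries of the first mock set, by protein and gene family, with the number of genes of each family in the legend. For CP190 the ppk bar (13 of 29 genes) stands near the bar of all genes (46.6%), while the Or, Gr and Ir bars are lower. For Su(Hw) and Mod(mdg4) the ppk bar stands above that of all genes.

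The families differed in which proteins they carried. CP190 was present at 13 of 29 ppk genes, 9 of 60 Gr genes, 8 of 59 Or genes and 6 of 66 Ir genes. Su(Hw) was present at 8 Or, 7 ppk, 4 Gr and 3 Ir genes, and Mod(mdg4) at 6 Or, 6 ppk, 3 Gr and 1 Ir gene. The ppk shares were above those of all genes, at 24.1% against 13.9% for Su(Hw) and 20.7% against 10.9% for Mod(mdg4). For both proteins the shares of the other families were near or below those of all genes. The median span was 2217 bp for ppk genes, against 1462 bp for Or, 1397 bp for Gr and 1896.5 bp for Ir genes. The ppk windows were thus longer at the median, and whether the shares follow span was not tested. M1BP was present at 3 Ir genes and at 2 genes of each other family. Among the 42 members with any protein in both mock libraries, the most frequent combination was CP190 with Su(Hw) and Mod(mdg4), at 15 members (7.01% of members, against 7.69% of all genes). CP190 alone was found at 11 members (5.14%, against 15.6%) and M1BP with CP190 at 8 (3.74%, against 18.2%). The triple of insulator proteins was thus near its share of all genes, and the latter combinations were below theirs. Su(Hw) alone was found at 4 members and CP190 with Su(Hw) at 2. Or85b had Su(Hw) with Mod(mdg4), and Ir40a had M1BP alone. No member had M1BP together with Su(Hw) or Mod(mdg4) in both libraries of the first mock set, against 587 of all genes (3.32%). With M1BP at only 9 members, against 4307 of all genes, this count says little. Gr97a, which had all 3 insulator proteins, had weak M1BP peaks in the second mock set, with fold enrichment 3.48 and 2.35.

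Several well-studied receptors had no peak in any list. Among odorant receptors these were Or22a (fruit esters), Or47b (fly odours), Or56a (geosmin) and Or67d (the male pheromone cVA). Among bitter receptors all 4 of the list, Gr32a, Gr33a, Gr66a and Gr93a, had none. The same held for the sugar receptors Gr5a, Gr43a and Gr64b to Gr64f, for Gr21a of the carbon dioxide receptor pair, for the co-receptor Ir76b, and for ppk (harsh touch) and ppk25 (pheromone response). The partner of Gr21a in the carbon dioxide receptor, Gr63a, had M1BP with fold enrichment 13.9 and 11.8 and CP190 with 4.93 and 7.42 in the first mock set. These summits lay 68 and 46 bp from the end of Lamtor4. A member's name, here and below, stands for the window that holds a peak, and the nearest gene end may be another gene's. Fold enrichment is a peak's ChIP signal over its control, the authors' own value from peak calling, and libraries were not scaled to each other. The sugar receptor Gr61a had CP190 with fold enrichment 6.06 and 8.57. The co-receptor Ir8a had CP190 with 9.04 and 9.09, at a summit 59 bp from the end of CG12121. Ir25a had no CP190 peak in the first mock set and 3.12 and 4.20 in the second, 9 bp from the end of Fnta. Of the pheromone and touch channels, ppk29 had CP190 with 3.27 and 5.21, 39 bp from the end of eEF5, and ppk26 had CP190 with 5.22 and 4.92. The water channel ppk28 had CP190 in 1 of the first mock libraries with 3.28.

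To compare positions, overlapping peaks of a protein in its libraries were merged into sites, and a site belongs to a member when any of its summits lies in the member's window. The first mock set had 10 member sites for M1BP, 41 for CP190, 24 for Su(Hw) and 19 for Mod(mdg4) in both libraries. Member windows covered 0.889 Mb. Their site density was 11.2 per Mb for M1BP against 23.7 in the windows of all genes, and 46.1 against 62.5 for CP190. For Su(Hw) it was 27.0 against 32.6 per Mb, and for Mod(mdg4) 21.4 against 20.8.

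Most Su(Hw) and Mod(mdg4) sites were nearest to the end of a member, while 6 of 10 M1BP sites lay at ends of other genes. The nearest annotated gene end belonged to a member for 21 of 24 Su(Hw) sites, 16 of 19 Mod(mdg4) sites, 25 of 41 CP190 sites and 4 of 10 M1BP sites. A gene-end site was defined as a summit within 250 bp of either end of any gene, because the gene table gives no strand. Of the Su(Hw) member sites 8 (33.3%) were gene-end sites, against 11.8% of all Su(Hw) sites, and 7 of these 8 lay at the end of a member. Of the M1BP member sites 6 were gene-end sites (60%, against 80.3% of all M1BP sites), and 0 of the 6 lay at the end of a member. In the second mock set 11 M1BP sites were gene-end sites, and again 0 lay at the end of a member. CP190 was mixed, with 10 gene-end sites at members and 15 at other genes. The window of 1000 bp selects sites inside or near a member, while all sites include those far from any gene. For Su(Hw) the median distance to a gene end was 450 bp at member sites and 3046.5 bp at all sites. The share of gene-end sites within the windows of all genes was not computed. The shares therefore cannot show a preference for gene ends or for receptor genes.

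**Figure D2:**
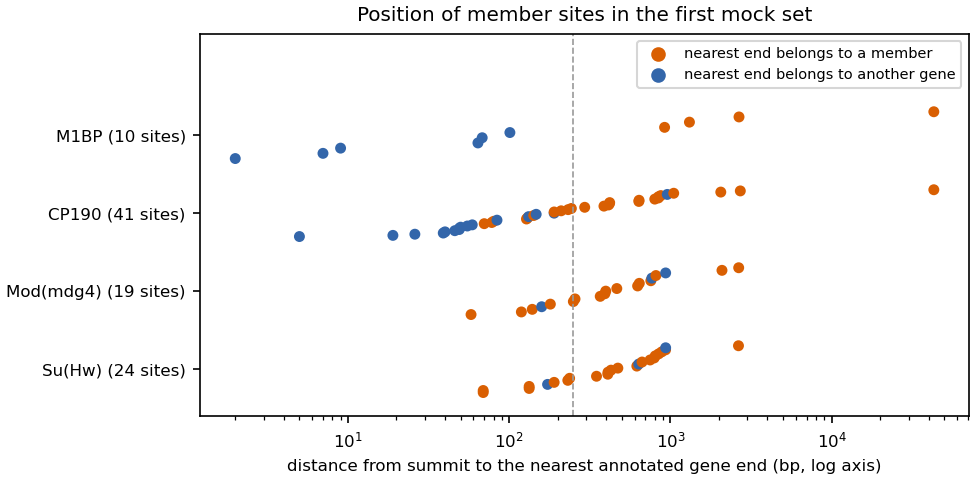
Distance in bp (horizontal log axis) from the summit of each member site of the first mock set to the nearest annotated gene end, 1 point per site, with the dashed line at 250 bp. All M1BP points left of the line are at ends of other genes. For most points of Su(Hw) and Mod(mdg4) the nearest end belongs to a member, though most lie right of the line.

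Where the insulator proteins met at a member, their summits nearly coincided. Of 24 Su(Hw) sites 17 overlapped CP190 (70.8%, against 66.4% of all Su(Hw) sites) and 17 overlapped Mod(mdg4) (70.8%, against 56.4%). All 19 Mod(mdg4) sites overlapped Su(Hw), as did 93.7% of all Mod(mdg4) sites. The median distance between summits was 20 bp for Su(Hw) and CP190 (17 sites, at most 70 bp) and 19 bp for Su(Hw) and Mod(mdg4) (17 sites), against 18 and 21 bp over all shared sites. M1BP and CP190 overlapped at 8 of 10 M1BP member sites (80%, against 78.3%), with a median summit distance of 54.5 bp against 49 bp over all.

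Strength was compared as the percentile rank of a peak's fold enrichment within its own list, where 100 is the strongest. The median rank of member sites was 55.8 for Su(Hw), 60.1 for CP190, 60.6 for Mod(mdg4) and 48.6 for M1BP, against 53.0, 53.0, 59.1 and 56.6 over all sites. A mean rank of 90 or more was reached by 4 Su(Hw) (16.7%), 6 CP190 (14.6%), 3 Mod(mdg4) (15.8%) and 0 M1BP member sites, against 9.15%, 10.7%, 11.5% and 10.3% of all sites.

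Or43a, an odorant receptor that responds to benzaldehyde, ranked high for all 3 insulator proteins. Its Su(Hw) site on chromosome 2R (7231847 to 7233428, summit 69 bp from the gene end) had fold enrichment 30.9 and 25.7 and a mean rank of 96.7. CP190 had 40.7 and 33.3 there (mean rank 97.0), and Mod(mdg4) had 30.9 and 19.0 (95.4). The pheromone-sensing channel gene ppk23 on X (17565802 to 17566677) held the highest mean Su(Hw) rank of the members, 98.1, with fold enrichment 24.1 and 33.6. Its CP190 values were lower in rank, at 21.1 and 19.3 (82.9), and Mod(mdg4) was weak, at 3.80 and 7.12 (36.1). In both libraries Mod(mdg4) was higher at Or43a than at ppk23, while for Su(Hw) the order of the genes differed between libraries.

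Or92a, a receptor for the food odour diacetyl, had the highest mean Mod(mdg4) rank, 97.6, from fold enrichment 27.6 and 24.1, with CP190 at 31.5 and 24.3 and Su(Hw) at 19.9 and 15.5. A weaker site at its other flank, next to the metallothionein gene MtnB, had Su(Hw) at 10.8 and 12.4, CP190 at 7.41 and 7.16 and Mod(mdg4) at 8.39 and 5.49. The strongest CP190 site of the members was inside ppk8 (X, 3569710 to 3571347), with 40.9 and 33.4 and a mean rank of 97.1, and it also had Mod(mdg4) at 20.5 and 19.9 and Su(Hw) at 15.7 and 21.8. Both ppk8 and Or92a therefore carried all 3 proteins in each library of the first mock set. Su(Hw) was also strong at Or59a, with 24.6 and 25.2 (mean rank 95.3), and at ppk9, with 21.1 and 23.3 (91.0). At these 2 genes CP190 had 15.9 and 15.9 (75.7) and 25.7 and 27.7 (90.8), and Mod(mdg4) had 9.92 and 17.2 (76.3) and 5.66 and 6.03 (44.8). Or47a had Su(Hw) at 17.3 and 18.7 (79.2) and Mod(mdg4) at 17.2 and 15.2 (85.4). Gr97a, ppk26 and Or85b had mean Su(Hw) ranks of 81.2, 77.5 and 72.0.

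The windows of some gustatory receptors and channels held strong CP190 without Su(Hw) or Mod(mdg4). Gr98d on 3R (27547124 to 27548120, summit 80 bp from the gene end) had CP190 at 33.3 and 34.4, a mean rank of 95.8. Gr89a on 3R (16497056 to 16497939) had 31.8 and 29.1 (93.8), and ppk14 on 2L had 27.2 and 24.0 (89.4). The ppk14 summit lay 132 bp from the end of CG9500. Neither M1BP nor Su(Hw) nor Mod(mdg4) had a site in both mock libraries at these 3 loci. Gr28a, whose product is a taste receptor for ribonucleosides in larvae, had CP190 at 24.0 and 22.1 (86.5), and a separate, weak Su(Hw) site inside the gene at 4.50 and 3.92.

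**Figure D3:**
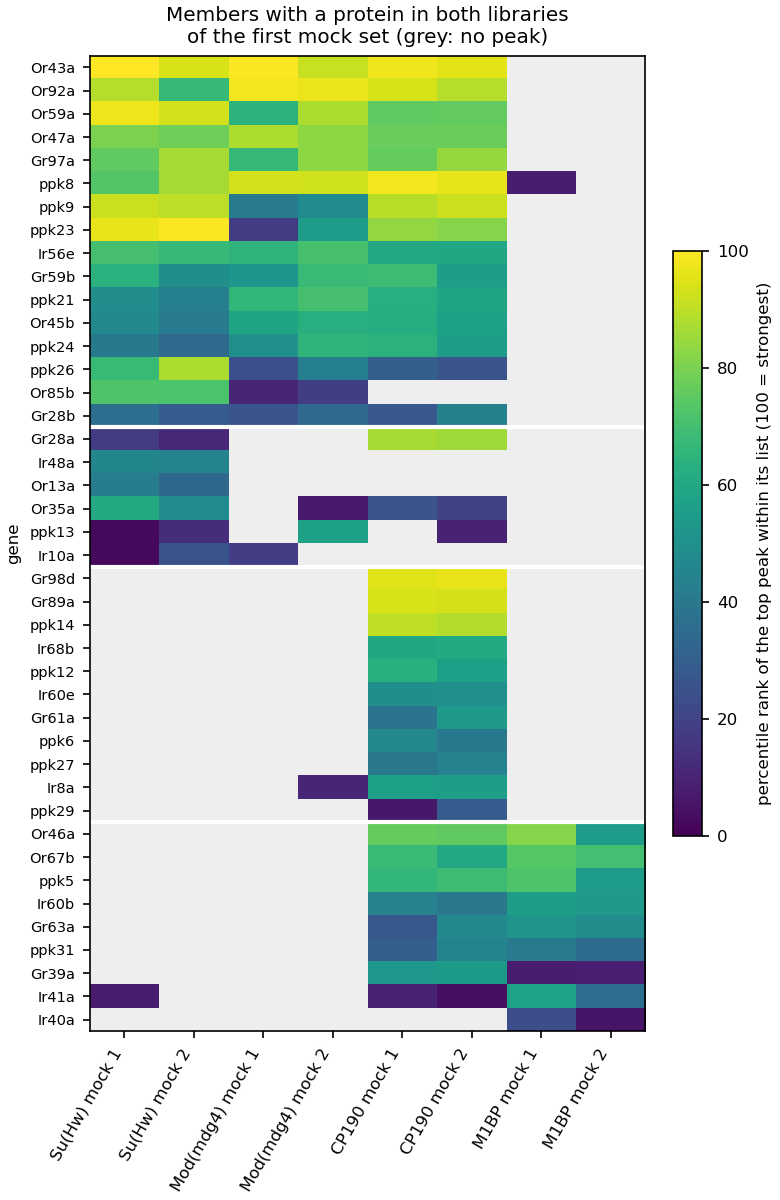
Percentile rank within its list (colour, 100 strongest) of the highest peak in the window of each of the 42 members with a protein in both libraries of the first mock set, for the 8 libraries. Grey means no peak. White lines separate members with Su(Hw) and Mod(mdg4), with Su(Hw) without Mod(mdg4), with CP190 alone, and with M1BP.

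M1BP near members was of middle rank. Its highest member site, 920 bp from the end of Or67b, had fold enrichment 20.9 and 17.1 and a mean rank of 71.8. The site in the window of Or46a, a receptor of the maxillary palp, lay 7 bp from the end of CG18011 and had 23.9 and 13.2. Near ppk5 there were 2 sites, 2 bp from the end of Mkrn1 with 20.3 and 13.1, and 64 bp from the end of the proteasome gene Rpn10 with 10.7 and 8.61. Sites at Letm1 (in the window of Ir60b), Lamtor4 (Gr63a) and CG34293 (ppk31) had mean ranks of 54.9, 50.3 and 38.5. All 6 gene-end sites of M1BP were thus at ends of genes that are no chemosensory genes. The other 3 sites lay inside long Ir genes. Ir41a, a receptor known from polyamine sensing, spans 104437 bp and held M1BP sites with 16.02 and 7.86 and with 7.32 and 4.42, and the humidity receptor Ir40a, of 24851 bp, held a site with 4.47 and 3.05. Gr39a had an M1BP peak in each library (3.27 and 3.24), but at different places, so that it counts as a gene with M1BP and not as a site.

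After M1BP knockdown, M1BP was no longer called at 5 of its 10 member sites (50%), against 35.4% of all its sites bound in both mock libraries. A site counts as lost when both mock lists and neither knockdown list have a peak, as retained when all 4 have it, and as gained when only both knockdown lists have it. Binding may remain at a lost site below the authors' peak threshold. The 5 lost sites were those inside Ir41a (both), in Ir40a, at Rpn10 beside ppk5 and at CG34293 beside ppk31. The 5 retained sites were those near Or67b, Or46a, Ir60b and Gr63a and at Mkrn1 beside ppk5. In mock replicate 2 all 5 lost sites (at most 8.61) lay below all 5 retained ones (at least 11.8). In mock replicate 1 the lost Ir41a site, with 16.02, lay above the retained Gr63a (13.9) and Ir60b (15.3) sites. When the 4 lists were cut to the length of the shortest, 0 member sites were lost. No member site gained M1BP, and 0.843% of all sites did.

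Values at the retained sites were lower in both knockdown libraries than in both mock libraries, which by itself is not comparable between libraries. Ir60b had 15.3 and 13.0 in mock cells against 9.45 and 10.2, Gr63a 13.9 and 11.8 against 4.62 and 6.19, and Or67b 20.9 and 17.1 against 3.87 and 4.26. Ranks were therefore taken among the sites retained in all 4 lists, and a site was called higher or lower when both knockdown ranks lay outside the mock ranks on the same side. Ir60b ranked higher, by a mean of 43.3 percentile points, and Gr63a by 16.8, while Or67b ranked lower, with a difference of -27.8. Over all retained sites 41.7% ranked higher and 33.7% lower, so that 2 higher and 1 lower of 5 stand close to the background. The 3 sites that moved became 5 without mock replicate 1 and 5 without mock replicate 2. Of all retained sites 90.1% and 88.9% moved in these 2 settings.

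CP190 stayed in place at most members after M1BP knockdown. Of 41 member sites 37 were retained (90.2%, against 92.1% of all sites) and 3 were lost (7.32%, against 4.26% of all sites). The lost sites were weak or of middle rank. Inside Gr39a, a receptor with a part in courtship, CP190 went from 8.23 and 8.82 to no peak in either library. At a second site beside ppk9 it had been 4.53 and 6.94, and at Mkrn1 beside ppk5 4.72 and 3.30. The Mkrn1 site was the only 1 of the 3 with M1BP in both mock libraries, and M1BP itself was retained there. The lost site inside Gr39a overlapped an M1BP peak of 1 mock library, and no M1BP peak was called there after knockdown. Partners were counted only where they had a site in both mock libraries. By partner, CP190 was lost at 1 of 8 member sites with M1BP (12.5%, against 8.83% of all such sites), at 0 of 18 with Su(Hw) or Mod(mdg4) (against 0.953%), and at 2 of 15 with none of the 3 (13.3%, against 4.36%).

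CP190 was gained at 5 of the 52 member sites seen in any of the 4 lists (9.62%, against 3.58% of all sites). The gains were at Ir25a (3.57 and 4.34), Ir48a (3.61 and 3.94), a site shared by Gr58b and Gr58c (5.75 and 4.02), the sugar receptor Gr64a (3.72 and 4.25) and Gr2a (2.12 and 2.12). All 5 are weak, and at Ir25a a CP190 peak of similar fold enrichment, 3.12 and 4.20, was present in the second mock set. At Ir25a, Ir48a and Gr2a the nearest gene end was that of Fnta, CG13197 and CG14785. With a threshold of 10 or more on the -log10 q of a peak, 3 member sites were gained.

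In rank, 15 of 37 retained CP190 sites (40.5%) lay higher after M1BP knockdown, against 26.3% of all retained sites, and 8 (21.6%) lay lower, against 24.2%. The largest difference towards a higher rank was at ppk27, which had 6.26 and 6.97 in mock cells and 13.9 and 12.7 in knockdown cells, a rank difference of 34.8. It was followed by the MtnB side of Or92a (7.41 and 7.16 against 10.9 and 13.1, 24.8), Gr63a (4.93 and 7.42 against 8.70 and 8.0, 19.4), Ir8a (15.1) and ppk31 (14.2). For each of these 5 sites the mock and knockdown libraries did not overlap in rank. Lower ranks were found at Or67b (12.5 and 10.1 against 4.89 and 5.19, a difference of -35.1), ppk24 (11.2 and 8.99 against 5.96 and 4.56, -28.4), Gr59b (-14.8), Gr28b (-12.8) and Or46a (-10.7). Of the sites with M1BP, Or67b and Or46a thus ranked lower for CP190, and Gr63a, ppk31 and Ir60b higher. Without a flank, 1 retained site was left among those that moved.

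Su(Hw) was retained at all 24 member sites after M1BP knockdown, and 99.0% of all its sites were retained. None of the 24 was lost, and 0.427% of all sites were. Gains were seen at 2 of 30 sites (6.67%, against 9.56%), at Gr64a (4.14 and 4.94) and at a weak site inside ppk8 (2.23 and 3.19). Without M1BP knockdown replicate 2 the gains were 4. Or43a had the largest rank difference. Its Su(Hw) values were 30.9 and 25.7 in mock cells and 13.7 and 16.1 in knockdown cells, and its rank differed by -22.2. The ppk8 site followed (15.7 and 21.8 against 11.4 and 13.2, -20.1), then ppk24 (-10.1), Ir56e (-10.0) and ppk23 (24.1 and 33.6 against 15.7 and 20.6, -9.25). Higher ranks were found at the MtnB side of Or92a (10.8 and 12.4 against 12.6 and 15.8, 20.7), Or85b (16.7), ppk13 (15.9), Or45b (9.51) and ppk21 (9.23). In all, 8 of 24 sites ranked higher (33.3%, against 26.6%) and 5 lower (20.8%, against 27.4%). These 13 became 21 without mock replicate 1 and 21 without mock replicate 2, when 78.6% and 76.8% of all retained sites moved.

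Mod(mdg4) was retained at 18 of 19 member sites (94.7%, against 90.1% of all sites) and lost at 1 (5.26%, against 3.87%), a site inside Gr28b, a receptor known from heat and light avoidance, with 3.94 and 3.59 in mock cells. It was gained at 2 of 44 sites (4.55%, against 7.74%), at Gr28a (4.28 and 2.78) and inside Ir41a (2.98 and 2.09). Both counts depend on single libraries. The lost sites were 4 without mock replicate 1 and 3 without mock replicate 2, and the gained sites were 5 without mock replicate 2, 11 without knockdown replicate 1 and 7 without knockdown replicate 2. In rank, 4 of 18 sites lay higher (22.2%, against 25.0%) and 6 lower (33.3%, against 26.4%). The lower sites included ppk8 (20.5 and 19.9 against 8.61 and 7.38, -30.2), ppk24 (-27.4), Or45b (-19.7), Gr59b (-14.0) and Or43a (30.9 and 19.0 against 12.2 and 9.69, -11.3). The MtnB side of Or92a (26.5), Or47a (16.9), ppk21 (16.2) and Or85b (9.72) lay higher. These 10 sites became 18 without mock replicate 1, when 74.7% of all retained sites moved.

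At 16 member sites of Su(Hw), CP190 and Mod(mdg4) were retained as well, and their rank differences can be set side by side. At Gr28b the Su(Hw) site spanned 2 retained CP190 sites. The CP190 site used here, with a difference of -3.47, did not overlap the retained Mod(mdg4) site. The other CP190 site, which ranked lower as given above, did overlap it. The sources used here do not say which control libraries belong to each list, and these may be shared, so no relation between the proteins was computed. At Or43a the differences were -22.2 for Su(Hw), -5.98 for CP190 and -11.3 for Mod(mdg4). At ppk24 they were -10.1, -28.4 and -27.4 in the same order. At both genes each protein ranked lower. At the MtnB side of Or92a they were 20.7, 24.8 and 26.5, at ppk21 9.23, 12.3 and 16.2, and at Or47a 6.69, 9.96 and 16.9. At each of these each protein ranked higher. The sites were picked for these values, and how often the proteins move together over all sites was not computed. At ppk8 CP190 overlapped between mock and knockdown (-1.52) where Su(Hw) and Mod(mdg4) ranked lower. At Or45b the differences were 9.51 for Su(Hw), 11.3 for CP190 and -19.7 for Mod(mdg4).

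**Figure D4:**
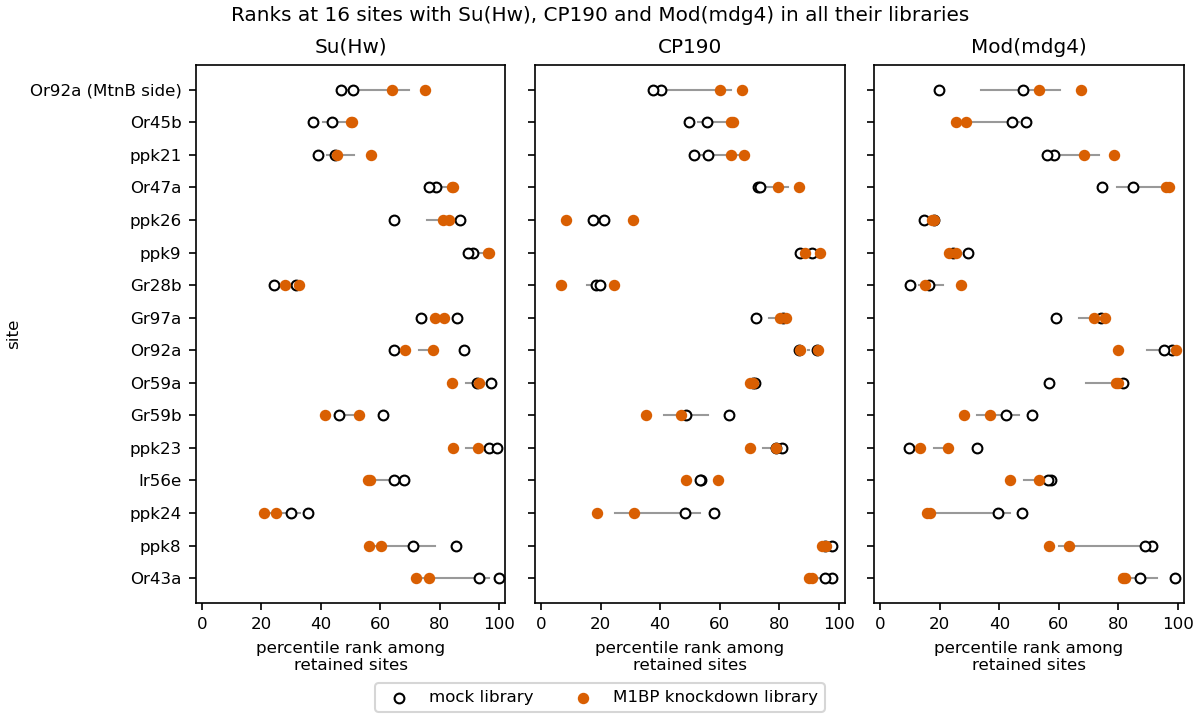
Percentile rank among the sites retained in all 4 lists of a protein (horizontal axis) at the 16 member sites retained for Su(Hw), CP190 and Mod(mdg4), with open circles for the 2 mock libraries, filled circles for the 2 M1BP knockdown libraries and a line between their means. Or43a and ppk24 lie to the left of mock in all panels, and the MtnB side of Or92a to the right. For Gr28b the CP190 points are those of a site that did not overlap its Mod(mdg4) site.

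After CP190 knockdown CP190 was lost at 27 of 43 member sites (62.8%, against 71.0% of all sites) and retained at 7 (16.3%, against 22.2%). The strongest lost sites were Gr98d, with 23.3 and 26.0 in the second mock set (ranks 88.9 and 92.4), and Gr97a, with 18.4 and 17.1 (82.5 and 80.6). They were followed by Gr59b, ppk21, Ir60e, the MtnB side of Or92a, ppk6 and Ir56e. Gr63a, Gr61a, Ir25a, ppk26 and ppk29 were among the lost sites too. The remaining 9 sites had a peak in 1 knockdown library, among them ppk8 (39.7 and 38.7 in mock cells and 4.28 in replicate 2), ppk23 (16.9 and 14.7 and 4.27 in replicate 1) and Ir8a (11.2 and 14.9 and 3.08 in replicate 1). When the lists were cut to the length of the shortest, which leaves out the weaker peaks of the mock lists, 2 member sites were lost. None of the 48 member sites was gained, against 0.0569% of all sites, and 1 was without CP190 knockdown replicate 1.

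The 7 retained sites were at Or43a, Gr28a, Gr89a, Or46a, Or59a, Or67b and Ir68b. Or43a kept the highest values, 31.1 and 25.9 in mock cells and 13.6 and 12.2 in knockdown cells, and among retained sites it ranked higher by 14.3. Gr89a had mock values of the same size, 34.7 and 31.0, and 3.37 and 3.96 in knockdown cells, a rank difference of -64.3. The site in the window of Ir68b, near the end of yps, had 10.7 and 11.2 against 3.77 and 3.63 and ranked higher by 18.2. At the other 4 sites the ranks overlapped. Over all retained sites 30.5% ranked higher and 27.8% lower, and 2 higher and 1 lower of 7 is a count too small to set apart from these. The 3 sites that moved became 12 without CP190 knockdown replicate 1 and 7 without replicate 2, when 77.5% and 79.6% of all retained sites moved. By partner, CP190 was lost at 8 of 12 member sites with M1BP (66.7%, against 65.3% of all such sites), at 10 of 18 with Su(Hw) or Mod(mdg4) in the first mock set (55.6%, against 69.0%) and at 9 of 13 with none of the 3 (69.2%, against 81.0%).

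**Figure D5:**
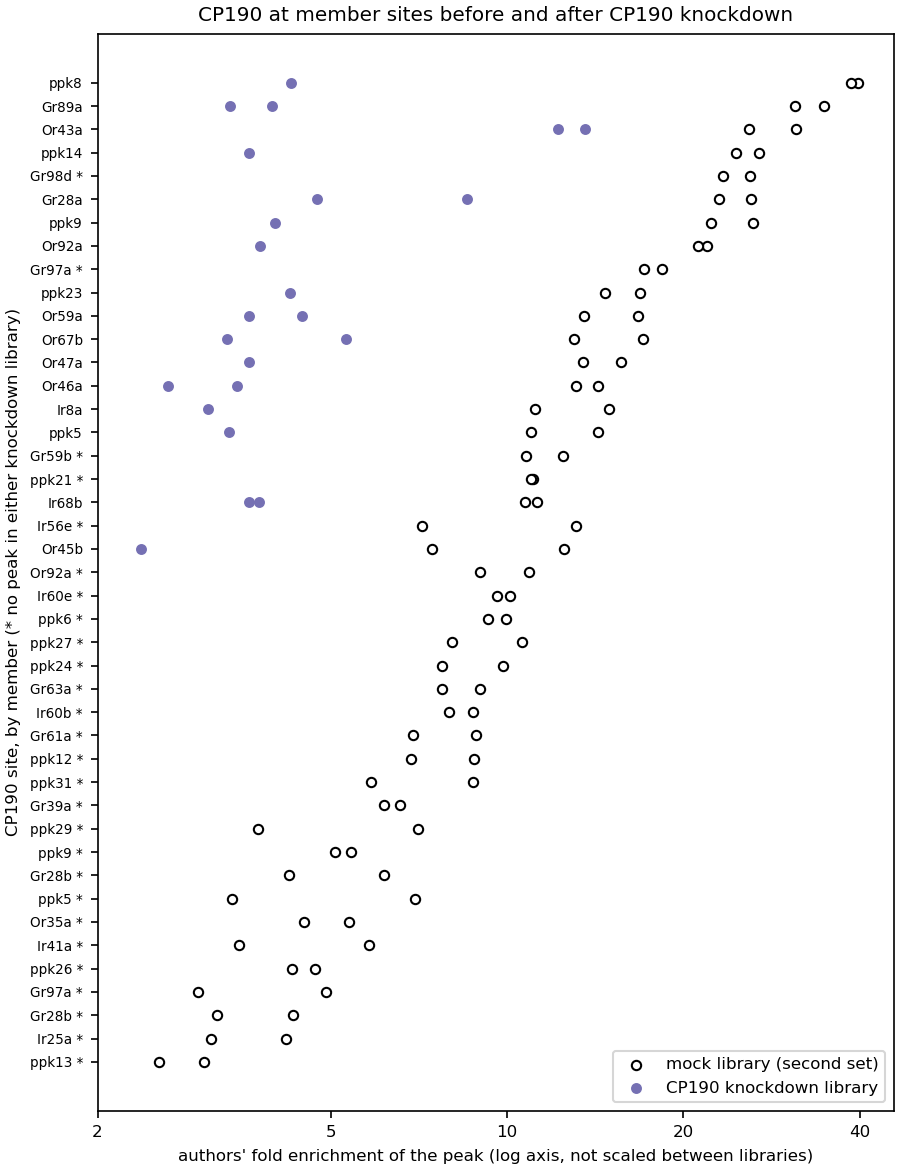
Fold enrichment of CP190 (horizontal log axis, as the authors' peak caller gave it, not scaled between libraries) at the 43 member sites bound in both libraries of the second mock set, 1 row per site with open circles for mock and filled circles for CP190 knockdown libraries. Rows marked with an asterisk are the 27 lost sites, and Or43a has the filled circles farthest to the right.

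M1BP stayed at most members after CP190 knockdown. Of 18 member sites 15 were retained (83.3%, against 88.4% of all sites) and 2 lost (11.1%, against 5.92% of all sites), both weak. These were inside Gr39a, with 3.0 and 3.66, and inside Ir41a, with 2.45 and 2.94. A single gain (of 25 sites, 4%, against 2.86%) was at yps beside Ir68b, with 6.55 and 4.56. Without the second mock set's replicate 2, 6 sites were lost. At Ir41a a stronger site went from 20.2 and 13.9 to 4.02 and 8.42 and ranked lower by a difference of -28.9. Sites of ppk29 (3.75 and 3.65 against 2.44 and 2.89, -5.79) and Gr94a, at the end of p53 (3.46 and 3.76 against 2.83 and 2.2, -6.13) also ranked lower. The p53 site was given to Gr94a by a knockdown summit, and its mock summits lay outside the window. No member site ranked higher, against 24.4% of all retained sites, and 3 of 15 (20%) ranked lower, against 22.2%. The 0 higher sites became 5 and 1 without mock replicates 1 and 2, and 3 and 5 without knockdown replicates 1 and 2. At Ir8a, a co-receptor for acid sensing, M1BP had 3.58 and 4.71 in mock and 6.10 and 3.63 in knockdown cells, which overlap. The 3 sites that moved became 8 and 9 without mock replicates 1 and 2 and 9 and 10 without knockdown replicates 1 and 2, when a single library stood on that side and 71.7% to 74.4% of all retained sites moved.

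The 56 related chemosensory genes were the odorant-binding protein (Obp) genes, Orco, Snmp1, Snmp2, lush and rpk. In both libraries of the first mock set CP190 was present at 8 of them (14.3%, against 46.6% of all genes). M1BP was present at 3 (5.36%, against 24.4%), Su(Hw) at 3 (5.36%, against 13.9%) and Mod(mdg4) at 2 (3.57%, against 10.9%). Each protein was thus below its share of all genes. Obp73a had CP190 at 37.9 and 30.1 and M1BP at 22.04 and 13.4. Obp28a had CP190 at 24.6 and 27.6 and M1BP at 20.1 and 11.2. Obp56b and Obp56c shared a site with CP190 at 23.6 and 21.8, Su(Hw) at 11.6 and 11.6 and Mod(mdg4) at 12.7 and 13.6. Orco, the partner of the odorant receptors, had no peak of the 4 proteins in the first mock set.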

How the data were processed

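Groups came from the sample titles. The authors called peaks for each library on its own. The tools named in the submitters' processing notes are MACS2 2.2.5, Picard 2.20.2, SAMtools 1.9 and Bowtie2 2.3.5, without order or options. The deposited score of a peak is an integer and was not used. The deposited fold enrichment is a ratio of ChIP over control, used only to describe and rank peaks within a list. The deposited -log10 p was not used, and the deposited -log10 q served for an alternative threshold of 10. Its smallest value was 1.3. The other deposited value is the summit position in bp from the peak start. The sources used here give no read depth, and the number of peaks limits the precision.

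The labels name no genome build. Sequence names are those of dm6, and the gene table (RefSeq, Release 6 plus ISO1 MT, 17872 genes) has no strand. Peaks sharing 1 bp or more formed a site. Values were computed with Python 3.11.15, numpy 2.4.6 and pandas 2.3.3, and the code was tested on simulated lists. Members, lists and tests were chosen with earlier results of these data known. No test was run over members, whose counts stand beside the same counts over all genes or sites. Named members are up to 10 per protein with the highest mean rank in mock cells, up to 8 lost and 8 gained sites and up to 5 retained sites with the largest rank difference in each direction per comparison, a fixed list of well-studied receptors, and up to 4 related genes. A few further sites are named, chosen after their values were seen. The planned search for motifs in promoters was not run, since no sequence was used here. Alternatives were another window, the -log10 q threshold, summits within 100 bp, lists of equal length, the replicate number as a block, and leaving out each library.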

Additional observations from a re-analysis of the deposited data

Results flagged for a closer look

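The site 70 bp from the end of Or45b moved in opposite directions after M1BP knockdown in the lists of different proteins. CP190 had fold enrichment 10.5 and 9.23 in mock cells and 12.0 and 12.2 in knockdown cells, a rank difference of 11.3. Su(Hw) had 10.3 and 9.42 against 10.7 and 11.6, a rank difference of 9.51. Mod(mdg4) had 8.61 and 8.98 against 5.38 and 3.82, a rank difference of -19.7. For each protein both knockdown ranks lay on the same side of both mock ranks, and the difference between the proteins was not tested.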

How the results depend on the processing

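Of 180 alternative values for 24 results, 117 stayed within 1.5 times the reported count, and 63 did not. Of the 96 that left out no library, 44 did not. The cause was not tested except where the setting itself removes genes, peaks or libraries. A window of 250 bp gave 5, 15, 7 and 12 member genes for M1BP, CP190, Mod(mdg4) and Su(Hw), in the first mock set, and 6 and 18 with M1BP and CP190 in the second. With no flank the counts were 3, 7, 4 and 7, and 3 and 8. With no flank after M1BP knockdown, 3 M1BP sites and 1 CP190 site were lost, 1 CP190, 1 Su(Hw) and 1 Mod(mdg4) site were gained, and 0 M1BP, 1 CP190, 3 Su(Hw) and 1 Mod(mdg4) sites moved in rank. With no flank after CP190 knockdown, 7 CP190 sites were lost, 0 M1BP sites were gained, and 1 M1BP and 0 CP190 sites moved in rank.

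With a -log10 q of 10 or more, 3 M1BP sites and 0 Mod(mdg4) sites were lost and 3 CP190 sites gained after M1BP knockdown, and after CP190 knockdown 0 M1BP sites were lost and 1 moved in rank. With lists of equal length, 0 M1BP sites were lost and 1 Su(Hw) and 0 Mod(mdg4) sites gained after M1BP knockdown, and after CP190 knockdown 1 M1BP and 2 CP190 sites were lost and 2 CP190 sites gained. Summits within 100 bp gave 2 M1BP gains after CP190 knockdown.

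Same-numbered libraries were not known to be paired, and their deviations correlated at -0.0143 to 0.166 over retained sites. With the replicate number as a block, a mean over both pairs, Su(Hw) gained 4 sites and Mod(mdg4) lost 4 and gained 11 after M1BP knockdown. After CP190 knockdown the block gave 5.5 M1BP sites lost and 6 moved in rank, and 0.5 CP190 sites gained and 5 moved in rank. The lost sites under the block were 6.5 for M1BP and 4 for CP190 after M1BP knockdown and 33.5 for CP190 after CP190 knockdown.

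Leaving out each library in turn gave, for genes in the first mock set, 9 to 10 with M1BP, 36 to 40 with CP190, 23 to 23 with Su(Hw) and 17 to 20 with Mod(mdg4), and 15 to 17 with M1BP and 39 to 40 with CP190 in the second. After M1BP knockdown the lost sites of M1BP ran from 5 to 7, those of CP190 from 3 to 4, those of Su(Hw) from 0 to 0 and those of Mod(mdg4) from 1 to 4. The gained sites ran from 0 to 0, 5 to 7, 3 to 4 and 2 to 11 in that order, and the sites moved in rank from 3 to 5, 29 to 34, 16 to 21 and 14 to 18. After CP190 knockdown the ranges for M1BP were 2 to 6 lost, 1 to 1 gained and 8 to 10 moved in rank, and those for CP190 28 to 34 lost, 0 to 1 gained and 4 to 12 moved in rank. With a single library on a side, fewer ranks have to be passed, and fewer lists have to hold a peak. The share of all retained sites that moved in rank rose as well. It lay between 46.6% and 75.4% with all libraries, and between 71.7% and 90.1% with a library left out. A threshold on peaks sets every lost or gained site, and weak sites lie near it.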
